A study of Mus musculus with 6 samples.

Results

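Lhx8, Lhx2 and Isl2 encode LIM homeodomain transcription factors, and Ldb2 encodes a cofactor that binds such factors. They were followed in the maxillary arch of mouse embryos that lack both Lhx6 and Lhx8. The members were all probe sets of the authors' significance table that carry 1 of these 4 gene symbols. Each gene had 1 such probe set, so 4 of the 1061 listed probe sets were followed, among 45101 in the value table of the whole array. Tissue was taken by laser from frozen sections of the head at embryonic day 10.5, over the territory of the maxillary arch mesenchyme where Lhx6 and Lhx8 are normally active. Both groups came from a mixed C57BL/6J, 129 and CD-1 background, and all embryos were female and matched by somite number. The wild-type group held 3 arrays, numbered 1, 4 and 5, and the Lhx6-/-; Lhx8-/- group, called double mutant below, held 3 arrays, numbered 1, 2 and 4, each from 1 embryo.

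LIM homeodomain proteins carry a pair of zinc-binding LIM domains, which bind other proteins, and a homeodomain, which binds DNA. LDB proteins bind the LIM domains and also each other, and so bring LIM factors and their DNA sites together into larger complexes. In the jaw primordia Lhx6 and Lhx8 act in tooth and palate formation, and mice without Lhx8 are known for cleft palate.

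The promoters of the LIM homeodomain genes are shown first, because these genes encode DNA-binding proteins and are themselves measured here after the loss of a pair of such proteins. RefSeq promoter sequences of build GRCm38.p6, running from 250 bases before to 50 bases after a start site, were matched by symbol for 3 of the 4 genes. Lhx8 had 1 such promoter, at chr3:154330511-154330810 on the minus strand. Lhx2 had 2, and the one shown lies at the start of the gene, at chr2:38339031-38339330 on the plus strand. The Isl2 promoter lies at chr9:55540899-55541198 on the plus strand. Ldb2 is named only. Each sequence is written 5′ to 3′, with every CG dinucleotide in capitals.
Lhx8: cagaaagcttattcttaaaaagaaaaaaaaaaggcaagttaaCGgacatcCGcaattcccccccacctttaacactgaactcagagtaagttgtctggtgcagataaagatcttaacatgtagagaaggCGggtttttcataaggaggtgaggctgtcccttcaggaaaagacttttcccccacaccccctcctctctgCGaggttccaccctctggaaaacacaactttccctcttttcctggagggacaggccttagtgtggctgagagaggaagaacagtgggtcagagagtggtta
Lhx2: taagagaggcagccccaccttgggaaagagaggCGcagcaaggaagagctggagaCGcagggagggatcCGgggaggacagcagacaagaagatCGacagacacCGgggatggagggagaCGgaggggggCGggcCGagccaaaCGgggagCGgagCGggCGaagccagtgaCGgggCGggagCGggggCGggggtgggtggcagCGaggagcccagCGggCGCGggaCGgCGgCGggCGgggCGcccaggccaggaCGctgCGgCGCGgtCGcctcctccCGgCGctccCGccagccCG
Isl2: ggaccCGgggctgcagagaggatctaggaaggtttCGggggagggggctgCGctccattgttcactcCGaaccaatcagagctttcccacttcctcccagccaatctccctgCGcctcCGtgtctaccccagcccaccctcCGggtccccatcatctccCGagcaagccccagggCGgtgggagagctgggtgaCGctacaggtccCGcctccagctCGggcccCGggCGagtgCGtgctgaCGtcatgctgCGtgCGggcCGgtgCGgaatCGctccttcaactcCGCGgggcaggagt
The promoter of Lhx8 held 4 CG dinucleotides and was 47.0% G and C, against a median of 7 and 52.7% over 32851 mouse promoters of the same length. The Lhx2 promoter shown held 34 and was 74.7% G and C, and that of Isl2 held 23 and was 67.3% G and C. The second Lhx2 promoter held 29. The letters TAAT, the core that homeodomain proteins commonly bind, were searched on both strands, where they read ATTA on the other strand and overlapping matches counted. They were found 0 times in each of the 4 promoters, while 58.0% of all promoters hold them. These letters are absent from these windows only.

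Expression was deposited in 2 forms. They share 5 arrays by genotype and number, so neither is independent of the other. The value table gives 1 linear intensity for every probe set and array. The significance table gives, for selected probe sets, intensities that its headers call raw, with a p-value and a fold. A probe set entered the significance table only at an unadjusted p of 0.05 and a fold of 1.25 between the genotypes, so the 4 genes had already been picked for a difference on these arrays. Of the 45037 probe sets other than controls, 2.36% were listed there, 0.924% as lower and 1.43% as higher in the double mutants. Its p-values and folds are therefore given as a description. One of its wild-type columns has a number found in no sample title and is called the unnumbered wild type; whether it is wild type 1 of the value table is not known.

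The array labelled double mutant 1 stood apart from the other 5 arrays in the value table. The 3′ to 5′ intensity ratio of the Actb control probe sets was 24.8 on it and 1.62 to 1.85 on the others, and that of Gapdh was 17.8 against 1.36 to 1.60. Its hybridization controls summed to 2.96 times the wild-type mean, and those of the other arrays to 0.930 to 1.07 times. Median intensity was 19.0 to 20.5 on all arrays, and 12879 to 13452 probe sets per array were over 100. The number of arrays limits the precision of every value. The difference between the genotypes for each of the 4 genes is given below with and without this array, while group means, ranks and marker counts include it.

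**Figure D1:**
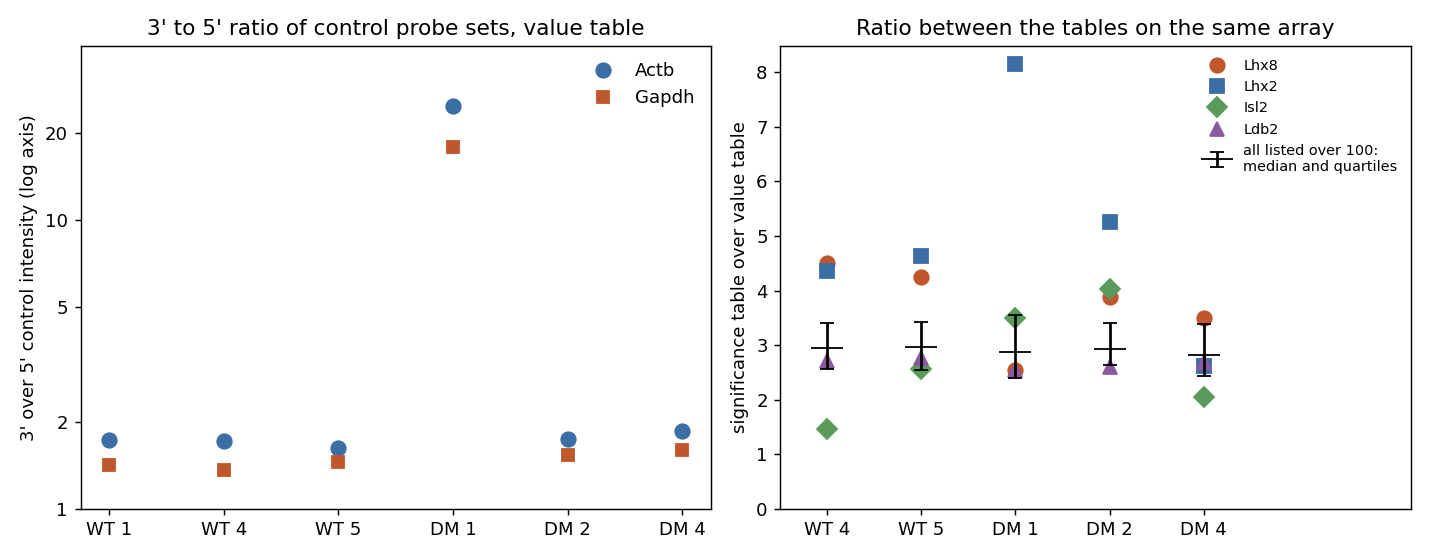
Left, the ratio of 3′ to 5′ control intensity on each array of the value table, on a log axis, where the array labelled double mutant 1 (DM 1) stands at 24.8 for Actb and 17.8 for Gapdh and the other arrays lie under 2. Right, the intensity in the significance table divided by that in the value table for the 5 arrays with a number in both, with points for the 4 genes and black bars for the median and quartiles of the listed probe sets whose value-table intensity was over 100. Of the 5 arrays, DM 1 has the lowest ratio for Lhx8 (2.54) and the highest for Lhx2 (8.15). Lhx2 was under 100 on every array of the value table and at 4.9 on DM 1.

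Lhx8, the targeted gene, was lower on average in the double mutants, in both tables, but kept a large signal in each of them. In the significance table the unnumbered wild type had an Lhx8 intensity of 8628, wild type 4 one of 8976 and wild type 5 one of 9493. The array labelled double mutant 1 had 5177, double mutant 2 had 2711 and double mutant 4 had 3177. The groups did not overlap there, and the array labelled double mutant 1 lay between the other double mutants and the wild types. As a percent of the wild-type mean, the 3 double mutants stood at 57.3%, 30.0% and 35.2%. The authors' deposited table gives Lhx8 as 2.55-fold lower with an unadjusted p of 0.00896. As every listed probe set separates the genotypes in that table (39.2% with the double mutants below and 60.8% with them above), the separation there carries no weight of its own. Fewer cells expressing a gene and less RNA per cell cannot be told apart in such bulk samples.

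In the value table the Lhx8 intensities of wild types 1, 4 and 5 were 2063.3, 1991.6 and 2240.5. The array labelled double mutant 1 had 2036.0, double mutant 2 had 699.3 and double mutant 4 had 910.5. The first of these lies within the wild-type range, so the groups overlapped, while double mutants 2 and 4 lay at 33.3% and 43.4% of the wild-type mean. The spread was also unequal. The coefficient of variation of Lhx8 was 6.11% among wild types and 59.1% among double mutants in the value table, and 4.82% and 35.5% in the significance table.

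The log2 difference of Lhx8 in the value table, double mutant minus wild type on the log2(intensity + 16) scale, was -0.93 ± 0.39 (SE), with a 95% interval from -1.90 to 0.04. Its unadjusted limma p was 0.0568 and its adjusted p over 45037 probe sets 0.857. Without the array labelled double mutant 1 the difference was -1.38 ± 0.15, with an adjusted limma p of 0.243 and an unadjusted one of 1.28e-04. In the significance table the log2 difference of -1.35 became -1.62 without this array. On the other arrays numbered in both tables, the significance table held 3.49 to 4.51 times the value-table intensity of Lhx8, and on the array labelled double mutant 1 it held 2.54 times. Over the listed probe sets with a value over 100 the median of that ratio was 2.82 to 2.96 on these 5 arrays. For Lhx2 the ratio was 8.15 on the array labelled double mutant 1 and 2.61 to 5.25 on the others. Its value-table intensity was under 100 on every array and 4.9 on the array labelled double mutant 1, so its ratios are not comparable with that median.

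The significance table places the Lhx8 probe set on chromosome 3 from 153969257 to 153993615, on the minus strand, a span of 24359 bases, and names no genome build. The part of the gene that was removed is likewise not given in the labels or headers. The span is about as long as the whole gene, 24273 bases in GRCm38.p6, and does not place the probes within it. Whether the probes lie inside or outside the removed part is therefore not known. For this reason the remaining Lhx8 signal neither checks the labels nor shows that intact Lhx8 message was made. Lhx6, the other targeted gene, was not analysed here, because no listed probe set bears its symbol.

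**Figure D2:**
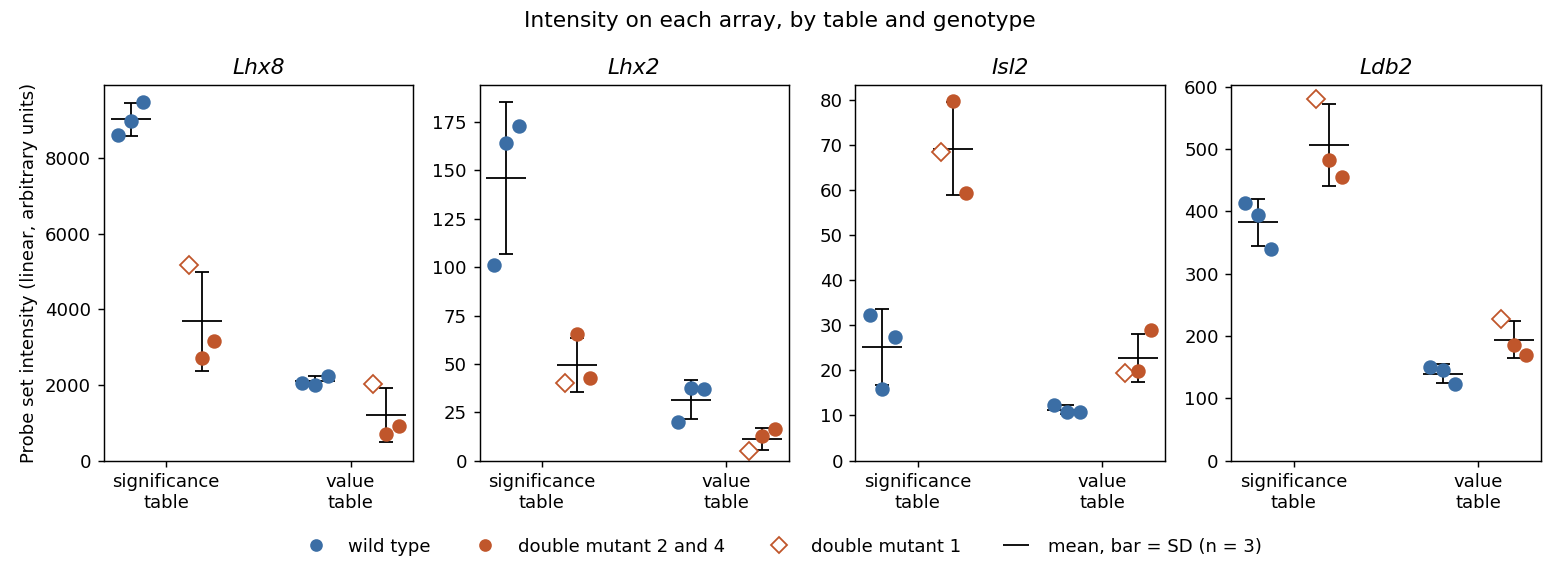
Intensity of Lhx8, Lhx2, Isl2 and Ldb2 on every array, on a linear axis from 0, in the significance table and the value table; points are arrays, the open diamond is the array labelled double mutant 1, and black marks are the mean and SD of 3 arrays. Lhx8 on that array is at 2036.0 in the value table, within the wild-type points, and Lhx2 lies lower and Isl2 and Ldb2 higher in all 3 double mutants as the tables are scaled, although the Ldb2 difference turns to -0.06 on the log2 scale when arrays are scaled to their hybridization controls.

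Lhx2, which acts in the developing eye, forebrain and limb, was also lower in the double mutants, from a much dimmer signal. Its intensity in the significance table was 101 on the unnumbered wild type, 164 on wild type 4 and 173 on wild type 5. It was 39.9, 65.6 and 42.6 on double mutants 1, 2 and 4. The groups did not overlap, and the mean went from 146 ± 38.9 to 49.4 ± 14.1 (SD, n = 3). In the authors' deposited table Lhx2 was 2.96-fold lower with an unadjusted p of 0.00928.

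In the value table Lhx2 stood at 19.7, 37.7 and 37.2 on wild types 1, 4 and 5 and at 4.9, 12.5 and 16.3 on double mutants 1, 2 and 4. These groups did not overlap either, and both means were under 100, the limit that the series' design text sets for a signal to be considered. The log2 difference was -0.80 ± 0.24 (SE), with a 95% interval from -1.40 to -0.20, an adjusted limma p of 0.857 and an unadjusted one of 0.0170. Without the array labelled double mutant 1, where Lhx2 was lowest in both tables, the log2 difference was -0.62 and the unadjusted limma p 0.0285. The constant of 16 weighs on so dim a probe set. With a constant of 1 the log2 difference was -1.49, and with 64 it was -0.34. The significance table, where intensities are larger and nothing was added, gave -1.56, and -1.43 without the array labelled double mutant 1.

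Of the list of neural epithelium, eye and forebrain markers, Lhx2 was the 1 listed gene out of 8. The other 7 were not analysed in the value table, and the part of those tissues in the Lhx2 difference was not tested. The Lhx2 probe set is placed on chromosome 2 from 38207102 to 38225258, on the plus strand, on the same unstated build.

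Isl2, known from motor neurons, sensory neurons and retinal ganglion cells, went the other way. In the significance table its intensity was 32.2, 15.8 and 27.4 on the unnumbered wild type and wild types 4 and 5. It was 68.3, 79.8 and 59.3 on double mutants 1, 2 and 4. All 3 double mutants lay above all wild types, and the mean went from 25.1 ± 8.44 to 69.1 ± 10.3 (SD, n = 3). In the authors' deposited table Isl2 was 2.86-fold higher with an unadjusted p of 0.0107. Both means were under 100, so Isl2 did not meet the authors' 3 criteria.

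In the value table Isl2 stood at 12.4, 10.8 and 10.7 on wild types 1, 4 and 5 and at 19.5, 19.8 and 29.0 on double mutants 1, 2 and 4. The groups did not overlap. The log2 difference was 0.50 ± 0.14 (SE), with a 95% interval from 0.16 to 0.83, an adjusted limma p of 0.857 and an unadjusted one of 0.0111. Leaving out the array labelled double mutant 1, the log2 difference was 0.56 and the unadjusted limma p 0.00721. In the significance table the log2 difference was 1.51, and 1.52 without that array. Scaled to the hybridization controls, the value-table difference was 0.29, with an unadjusted limma p of 0.372, and 0.44 relative to the median of all probe sets under that scaling.

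Some markers of glia and Schwann cell precursors were listed as higher, as Isl2 was. Of the 7 on the list 4 were listed, and all 4 were higher in the authors' deposited table: Sox10, Ngfr, Erbb3 and Foxd3. Of all probe sets 1.43% were listed as higher. Over their 5 probe sets the summed intensity there was 284.9 to 314.5 on the wild types and 605.2 to 687.4 on the double mutants. Every probe set listed as higher separates the genotypes in that table, so the separation of these sums carries no weight of its own. The brightest was 1 of the Ngfr probe sets, at 191 ± 14.7 across wild types and 414 ± 77.0 across double mutants (SD, n = 3). The other markers on that list were not analysed. Of the 12 markers of neurons and sensory ganglia, Isl2 itself was the 1 listed, and the others were not analysed in the value table. The part of other cell types in the Isl2 difference was not tested. The Isl2 probe set is placed on chromosome 9 from 55388954 to 55393987, on the plus strand.

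Ldb2, also called CLIM1, encodes a protein that binds LIM domains and carries no DNA-binding domain of its own. Its difference was the smallest of the 4 genes in fold. In the significance table Ldb2 intensity was 413, 394 and 340 on the unnumbered wild type and wild types 4 and 5. On double mutants 1, 2 and 4 it was 580, 483 and 455. The groups did not overlap, and the mean went from 382 ± 38.2 to 506 ± 65.7 (SD, n = 3). In the authors' deposited table Ldb2 was 1.32-fold higher with an unadjusted p of 0.0412, which is under the fold of 1.5 that the design text asks for.

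In the value table Ldb2 stood at 150.2, 145.8 and 122.8 on wild types 1, 4 and 5 and at 227.3, 185.6 and 169.2 on double mutants 1, 2 and 4. The groups again did not overlap, and the array labelled double mutant 1 was the highest. The log2 difference was 0.43 ± 0.15 (SE), with a 95% interval from 0.05 to 0.80, an adjusted limma p of 0.857 and an unadjusted one of 0.0314, but the difference turned to -0.06 when arrays were scaled to their hybridization controls. That scaling moved the median difference of all probe sets by -0.19, and relative to that median Ldb2 stood at 0.09. Without the array labelled double mutant 1 the log2 difference was 0.32 and the unadjusted limma p 0.0514. The significance table gave a log2 difference of 0.40, and 0.30 without that array. Of the 10 markers of endothelium and pericytes on the list, Ldb2 itself was the 1 listed. With 2.36% of all probe sets listed and the other markers not analysed in the value table, nothing is read from that count. The Ldb2 probe set is placed on chromosome 5 from 44863931 to 45190946, on the minus strand, a span of 327016 bases.

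None of the 4 genes passed limma's test after adjustment. Of 45037 probe sets, 0 had an adjusted p under 0.05, a share of 0%, and 1646, or 3.65%, had an unadjusted limma p under 0.05. The ordinary unpaired test gave 1 and 1777. Its 1 had an adjusted p of 1.19e-48, which takes almost no spread within the groups. The limma share of 3.65% is smaller than the limit of 0.05 itself would give with no difference at any probe set. Lhx2 was among the 664 lower probe sets at that unadjusted limit, which are 1.47% of all, and Isl2 and Ldb2 were among the 982 higher ones, which are 2.18%. Lhx8 was not among them. That split moved with the scaling: it was 690 higher and 898 lower with arrays set to a common median, and 145 higher and 985 lower when scaled to the hybridization controls. With quantile normalization it was 856 and 811, with a constant of 1 it was 1496 and 582, and with the replicate number as a block 309 and 358. Double mutants lay wholly below the wild types in 4.06% of all value-table probe sets and wholly above in 6.72%. Of the 4 genes 1 was wholly below and 2 wholly above, which the choice of the genes from the significance table favours. The design text asks for a fold above 1.5, an uncorrected p below 0.05 and an average intensity above 100 in at least 1 genotype. With the significance-table values, which also chose the genes, Lhx8 and Lhx2 met these 3 criteria, as did 24.6% of the listed probe sets. Isl2 lacked the intensity and Ldb2 the fold. With the value table neither would qualify, since the Lhx2 means were 31.5 and 11.2 and the unadjusted limma p of Lhx8 was 0.0568.

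**Figure D3:**
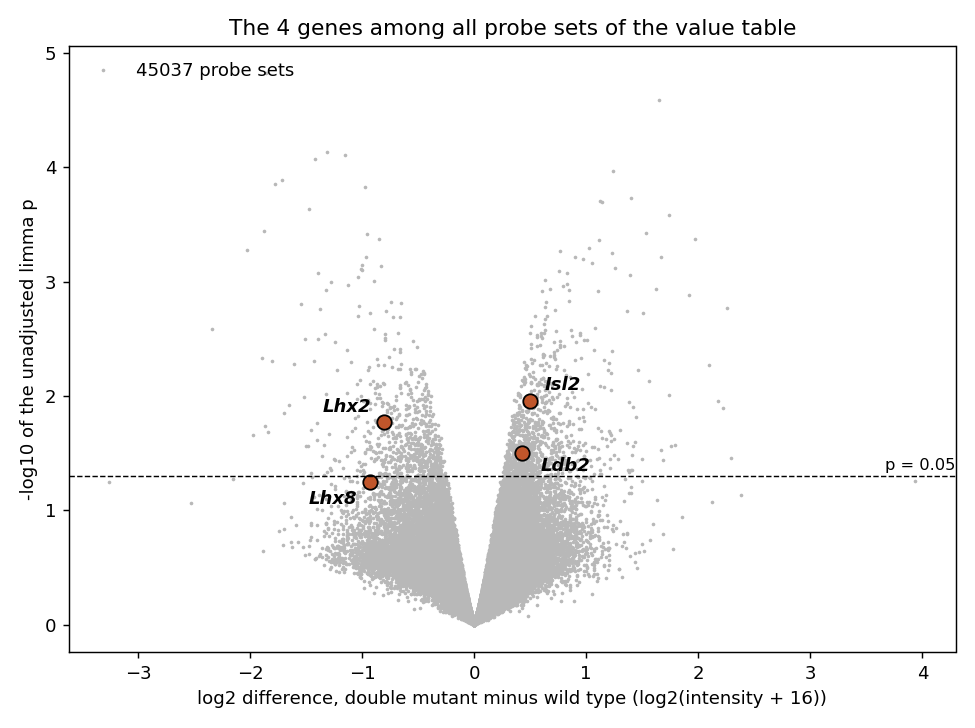
Each grey point is 1 of 45037 probe sets of the value table, with its log2 difference, double mutant minus wild type, across and -log10 of the unadjusted limma p upwards; the dashed line marks the unadjusted limit. Lhx2 (-0.80), Isl2 (0.50) and Ldb2 (0.43, turning to -0.06 when scaled to the hybridization controls) lie above the line and Lhx8 (-0.93) just below it, all in the midst of many other probe sets.

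Among probe sets listed in the same direction the genes ranked differently. In the authors' deposited table the median fold of the 416 lower probe sets was 1.61, and 12.3% of them had a larger fold than Lhx8 and 6.73% a larger one than Lhx2. The median fold of the 645 higher probe sets was 1.41, and 4.34% had a larger fold than Isl2 and 75.0% a larger one than Ldb2.

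The LIM network was looked up in the significance table, which lists 2.36% of all probe sets. Of 12 LIM homeodomain genes on the list for this family, 3 were listed, Lhx8 and Lhx2 as lower and Isl2 as higher. Of the 4 LIM-only genes, whose proteins consist mainly of LIM domains and compete for LDB cofactors, 0 were listed. Of the 6 cofactor genes, which include Ldb1, Rlim and the single-stranded DNA binding proteins that join LDB complexes, Ldb2 was the 1 listed. The listed genes are the 4 members, which were themselves taken from the listed probe sets. Nothing is therefore read from these counts beside the 2.36%. The other 18 genes, among them Isl1, Lhx9 and Lmo4, were not analysed here, since names came from the listed probe sets. Nothing is read from their not being listed. The file annotates 59 listed genes with 1 symbol to sequence-specific transcription factor activity. Of these 17, or 28.8%, were lower and 42 higher, against 37.6% lower among all 842 such genes.

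Of 18 mesenchyme and neural crest markers on the list 3 were listed, Msx1 and Barx1 as lower and Pdgfrb as higher. The other markers on that list were not analysed. Msx1, a homeobox gene of the arch mesenchyme, had an intensity of 4554 ± 464 across wild types and 2923 ± 490 across double mutants in the significance table (SD, n = 3). Barx1 went from 771 ± 328 to 266 ± 130 there, and Pdgfrb from 1973 ± 115 to 2770 ± 239. Of the 10 epithelial, 6 head muscle and 5 blood markers 0 were listed. With 2.36% of all probe sets listed, and with these genes not analysed in the value table, that count says nothing of their levels.

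The genes whose levels followed the 4 most closely across the 6 arrays were found by Pearson correlation of log2 intensity in the significance table, among 376 or 377 other genes with a mean over 100 in either group. These correlations share the arrays, the genotype split and the authors' selection, and are a description. Without the array labelled double mutant 1, the correlations named here were 0.96 to 0.99. For Lhx8 the closest was Car12, which encodes a membrane carbonic anhydrase, at 0.994. It was followed by Id4, an inhibitor of helix-loop-helix factors, at 0.982, the homeobox gene Cux2 at 0.968 and Calu at 0.959. Car12 had 0.98 in the value table, and Calu had 0.59 there. Car12 intensity was 764 ± 47.8 across wild types and 472 ± 85.9 across double mutants (SD, n = 3).

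For Lhx2 the closest were Pabpc4l at 0.994, Enox1 at 0.989, Fut11 at 0.989, Rprm at 0.984 and Rad54l at 0.976. Rprm, known as a cell cycle arrest gene, had 0.99 in the value table, whereas the DNA repair gene Rad54l had -0.34 there. For Isl2 they were Gramd3 at 0.965, the chromatin remodelling gene Ep400 at 0.963, Nacc2 at 0.954, the elastin gene Eln at 0.947 and the phosphatase gene Ptpn14 at 0.947. In the value table these ranged from 0.23 for Gramd3 to 0.97 for Nacc2. For Ldb2 they were Rybp, a gene of Polycomb complexes, at 0.990, Ribc1 at 0.985, the calcium channel gene Itpr1 at 0.982, the semaphorin gene Sema6a at 0.981 and Zfp628 at 0.981. Of each set of 5, 2 for Lhx8 and 1 each for Lhx2, Isl2 and Ldb2 were also among the closest 5 in the value table, so most of these neighbours depend on which table is used.

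**Figure D4:**
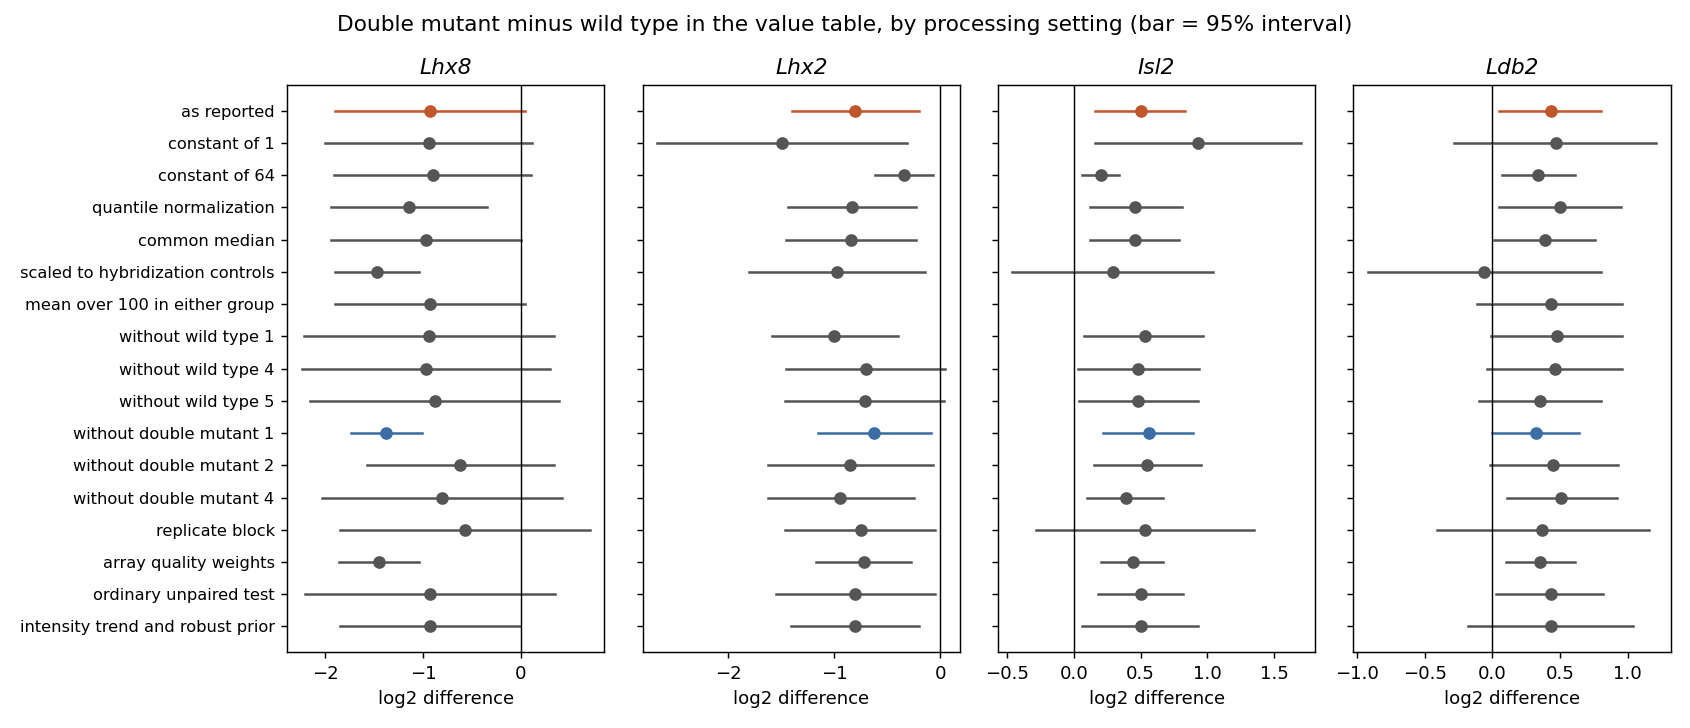
Log2 difference of each gene in the value table, double mutant minus wild type, with its 95% interval, as reported (orange), without the array labelled double mutant 1 (blue) and under the other settings (grey). Lhx8 runs from -1.47 to -0.57 and Lhx2 from -1.49 to -0.34, Isl2 stays between 0.20 and 0.93, and Ldb2 crosses 0 at -0.06 when scaled to the hybridization controls; Lhx2 and Isl2 have no point under the intensity filter because both were too dim.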

How the data were processed

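Total RNA of laser-dissected tissue was amplified and, per the labels' protocols, hybridised to Affymetrix arrays. The value table holds linear intensities deposited by the authors. RMA is the 1 tool named, per the submitters' processing notes, but the values are linear and contain zeros, so the sources used here do not settle how they were summarised. The significance table holds further intensities, absolute fold changes (a ratio) and p-values that the authors took from an unpaired test and did not correct, per the file headers. Limits of 0.05 for p and 1.25 for fold decided what was deposited there. A further 6 columns of normalized values per array were not used. Columns were matched to samples by accession or by genotype and number.

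For the value table, 64 control probe sets were left out, 16 was added, log2 taken, and genotype fitted in R 4.3.3 by limma 3.58.1 (lmFit, eBayes), with Benjamini-Hochberg adjustment over 45037 probe sets and no intensity filter, so that dim genes were included. The fit was tested on simulated data with the same spread in both groups, that spread capped, and no outlying array. That test does not cover an array such as the one labelled double mutant 1, nor probe sets whose spread is above the cap. With 3 arrays a group, the smallest p of an exact permutation test is 0.1, and none was run. Other steps used pandas 2.3.3, numpy 2.4.6, matplotlib 3.10.9 and scipy 1.17.1 under Python 3.11.15. The named genes were the 4 members, every listed gene of a list of 22 LIM network genes, and the 5 genes most like each member's brightest probe set, of which 1 item is not reported here; markers came from 8 cell type lists. The members and lists were chosen with earlier results of these data known. Alternatives were other constants and scalings, an intensity filter, each array left out, a replicate block, array weights, an intensity trend and the ordinary test.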

Additional observations from a re-analysis of the deposited data

How the results depend on the processing

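In the value table Lhx8 and Lhx2 stayed lower, and Isl2 higher, under all alternatives that could be run (16, 15 and 15), with log2 differences from -1.47 to -0.57, -1.49 to -0.34 and 0.20 to 0.93. The -0.57 of Lhx8 came with the replicate block, which rests on the arrays numbered 1 and 4 alone. Ldb2 was higher in 15 of 16, up to 0.51, and turned to -0.06 when scaled to the hybridization controls, with an unadjusted limma p of 0.868; those controls stood 2.96 times higher on the array labelled double mutant 1. None of the 4 passed an adjusted p of 0.05 under any of these alternatives, limma fits and the ordinary test alike, and the adjusted p ran from 0.0912 to 0.977 for Lhx8, from 0.305 to 0.977 for Lhx2, from 0.267 to 0.977 for Isl2 and from 0.348 to 0.980 for Ldb2. The lowest, 0.0912, came with array quality weights, which gave the array labelled double mutant 1 a weight of 0.124. With an intensity filter Lhx2 and Isl2 left the fit. An unadjusted limma p under 0.05 was reached in 6 of 15 limma alternatives for Lhx8, 12 of 14 for Lhx2, 12 of 14 for Isl2 and 5 of 15 for Ldb2. For Lhx2 it was 0.0603 without wild type 4 and 0.0595 without wild type 5, and for Ldb2 it was 0.0514 to 0.103 without any 1 array other than double mutant 4. Leaving out 1 array at a time gave log2 differences from -1.38 to -0.62 for Lhx8, -1.0 to -0.62 for Lhx2, 0.39 to 0.56 for Isl2 and 0.32 to 0.51 for Ldb2.

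The count past the adjusted threshold was 0, with 1646 unadjusted, and became 9 with array quality weights and 1 with the ordinary test. That 1 had an adjusted p of 1.19e-48 in the ordinary test, which takes almost no spread within the groups. The unadjusted count was 245 with the intensity filter, 4719 with array quality weights and 667 with the replicate block. It was 996, 883 and 796 without wild type 1, 4 and 5, and 2825, 3327 and 2650 without double mutants 1, 2 and 4. In the significance table leaving out each array kept every direction, from -1.62 to -1.15 for Lhx8, -1.81 to -1.42 for Lhx2, 1.21 to 1.72 for Isl2 and 0.30 to 0.48 for Ldb2. Taking the value table in place of the significance table moved Lhx8 from -1.35 to -0.93, Lhx2 from -1.56 to -0.80 and Isl2 from 1.51 to 0.50 by more than the pooled SD of log2 intensity within groups in the significance table (0.35, 0.41 and 0.41). For Lhx8 the double mutants spread wider in the value table, with a coefficient of variation of 59.1%. With a constant of 1 the value table gave -1.49 for Lhx2 and 0.93 for Isl2. The cause of these differences between the tables was not tested. Of the 5 genes most like each member, 1 to 3 remained among the closest 5 without the array labelled double mutant 1.

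Numbers 1 and 4 occur in both groups, but nothing in the labels says that they pair embryos, and deviations of same-numbered arrays correlated at 0.048 and -0.052. With the replicate number as a block the log2 differences were -0.57 for Lhx8, -0.75 for Lhx2, 0.53 for Isl2 and 0.37 for Ldb2. The unadjusted limma p was then 0.247, 0.0429, 0.126 and 0.222, so Isl2 and Ldb2 no longer passed 0.05. Signal limits Lhx2 and Isl2 most, since both were under 100 in the value table.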
